A study of Mus musculus with 6 samples.

Results

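Paqr9 belongs to the PAQR genes, named after the progestin and adipoQ receptors they encode, and its signal was far lower in liver of mice lacking Creb3l3 than in liver of wild-type mice. On its brightest probe the signal lay between 1709 and 2827 units on the 3 wild-type arrays and between 96.2 and 329 units on the 3 knockout arrays, of which the third was very dim for all probes and held the lowest value. The other receptors of the family that were detected, Adipor1, Adipor2 and Paqr7, were not called different. The probes were those whose gene symbol on the array belongs to the family: Paqr9, its older name C730029A08Rik, Paqr3, Paqr4, Paqr5, Paqr7, Paqr8, Adipor1 and Adipor2. They numbered 10 of the 45281 probes on the array, stood for 7 of its 28908 genes and carried 8 of these 9 symbols, Paqr4 being the symbol without a probe. Paqr9 was itself chosen by its fall in these same arrays, so its values are given as a description and carry no test. The other members were chosen by symbol.

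The arrays came from livers of 6 male mice of C57BL/6 background, fed a normal chow diet and then fasted for 24 h. There were 3 wild-type mice and 3 Creb3l3-deficient mice, 1 array each, and the submitters describe them as littermates. No fed mice were among the samples used here, so every value belongs to the fasted state. How the Creb3l3 allele was made, the ages of the mice and whether the loss was limited to liver are not given in these sources. CREB3L3, also called CREB-H, is a transcription factor of liver and intestine that is held in the endoplasmic reticulum membrane and released as an active fragment after cleavage in the Golgi. It is known for a part in the fasting response of the liver. RNA came from whole liver, so fewer cells of a type and less RNA per cell cannot be told apart.

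PAQR proteins are membrane proteins with several transmembrane helices. The best known are the adiponectin receptors encoded by Adipor1 and Adipor2, through which adiponectin, a hormone of fat tissue, acts on AMP-activated kinase and on fatty acid oxidation in liver. A second branch, which includes Paqr5, Paqr7, Paqr8 and Paqr9, is described as membrane progestin receptors. Paqr3 encodes a Golgi protein that holds RAF kinase there and tethers SCAP. PAQR9 has been described as a liver protein that stabilises PPARA during fasting by hindering its degradation through the ubiquitin ligase HUWE1, and as a partner of the BAG6 quality-control complex.

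Knockout array 3 stood apart from the other arrays. Its mean signal was 87.3 units, and it detected 9.5% of the probes. Knockout array 1 was the next dimmest, with a mean of 149 units and 26.2% of the probes detected. The wild-type arrays and knockout array 2 had means of 219 to 252 units and detected 34.2% to 35.8%. The log2 signals of knockout array 3 correlated with any other array at 0.676 to 0.697, whereas the other 5 correlated with each other at 0.973 to 0.993. The results for the family are therefore given in 5 arrays, without it, and in all 6, and marker levels in the 5 only. Creb3l3 had deposited signals of 1201, 949 and 929 units on wild-type arrays 1, 2 and 3, and of 148, 283 and 87.9 units on knockout arrays 1, 2 and 3. Every knockout array was below every wild-type array. In the fit of 5 arrays the log2 change of Creb3l3 was -2.32 ± 0.15 (SE), a 4.99-fold fall, with a limma adjusted p of 0.00271, and in all 6 arrays it was -2.72 ± 0.39 with an adjusted p of 0.574. The call in the 5 arrays was lost under median scaling (adjusted p = 0.175). Where the Creb3l3 probe lies relative to the deleted sequence is not stated in the labels.

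The 4 probes that measured Paqr9 are numbered here by brightness. Probe 1 is ILMN_2752524, probe 2 is ILMN_3094043, probe 3 is ILMN_1250303, which the array lists under C730029A08Rik, and probe 4 is ILMN_3021711. The position of each probe within the transcript was not analysed here, so the levels of the probes are not set against each other.

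Probe 1 of Paqr9 had deposited signals of 2530, 1709 and 2827 units on wild-type arrays 1, 2 and 3, and of 124, 329 and 96.2 units on knockout arrays 1, 2 and 3. It was detected on all 6 arrays, detection meaning a deposited detection p-value below 0.05. No knockout array reached the lowest wild-type array, and knockout array 2 was the highest of the 3. The median probe of an array lay between 83.7 and 95.0 units, and the signals on knockout arrays 1 and 3 exceeded the median of their array by 29.5 and 12.5 units.

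Probe 2 had signals of 791, 455 and 891 units on the wild-type arrays and of 94.2, 153 and 84.1 units on the knockout arrays. Probe 3 had signals of 845, 399.9 and 764 units on the wild-type arrays and of 99.3, 162 and 81.3 units on the knockout arrays. Both were detected on all 3 wild-type arrays and, of the knockout arrays, only on knockout array 2. As with probe 1, wild-type array 2 was the lowest wild-type array and knockout array 2 the highest knockout array. Probe 4 was dim throughout, at 100.1, 99.9 and 103 units on the wild-type arrays and 94.8, 93.5 and 88.0 units on the knockout arrays. It was detected on the 3 wild-type arrays and on no knockout array.

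**Figure D1:**
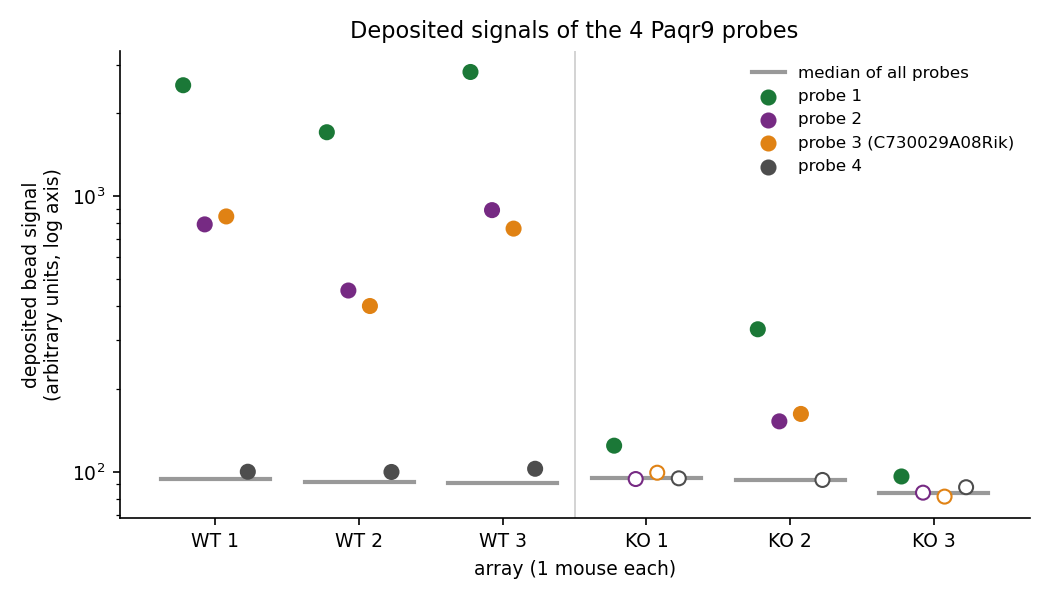
Deposited bead signals of the 4 Paqr9 probes (arbitrary units, log axis) on each of the 6 arrays, with filled points where the probe was detected, open points where it was not, and a grey bar at the median of all probes of the array. Probe 1 runs from 1709 to 2827 units on the wild-type arrays and from 96.2 to 329 units on the knockout arrays, while probe 4 stays near the grey bars.

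The rank of Paqr9 within each array needs no normalization between arrays. Probe 1 stood at percentiles 98.6, 98.4 and 99 of all probes on the wild-type arrays, and at percentiles 87.9, 92.2 and 97.1 on knockout arrays 1, 2 and 3. Probe 2 went from percentiles 95 to 97.2 to percentiles 45.1, 83.5 and 53.6. Probe 3 went from percentiles 94.5 to 96.8 to percentiles 69.1, 84.5 and 25.4. On knockout arrays 1 and 3 the signals of probes 2 and 3 were not detected, and their ranks there are those of background. On knockout array 3 the signal of probe 1 was 12.5 units above the array's median, and the signals of Adipor1 and Adipor2 were 18.9 and 20.0 units above it.

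After background correction and quantile normalization of 5 arrays, probe 1 had log2 levels of 10.87, 10.61 and 11.39 on the wild-type arrays and of 6.71 and 7.64 on knockout arrays 1 and 2. The means were 10.96 ± 0.39 (SD, n = 3) and 7.17 ± 0.66 (SD, n = 2). The log2 change was -3.78 ± 0.32 (SE), a 13.8-fold lower level. Taken singly against the wild-type mean, knockout array 1 was 19.0-fold lower and knockout array 2 was 9.99-fold lower. Those knockout arrays differed by 0.93 on the log2 scale.

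Probes 2 and 3 of Paqr9 gave changes of similar size. Probe 2 had log2 levels of 9.09, 8.54 and 9.64 on the wild-type arrays against 4.34 and 5.98 on knockout arrays 1 and 2, a log2 change of -3.92 ± 0.48 (SE) or 15.2-fold. Probe 3 had 9.19, 8.32 and 9.40 against 4.69 and 6.14, a log2 change of -3.55 ± 0.45 (SE) or 11.8-fold. On both, 1 of the 2 knockout arrays was not detected, and the offset of 16 added in the background correction makes a fold change of a dim probe smaller than it would otherwise be. Probe 4 had 4.60, 4.75 and 4.90 against 4.37 and 4.37. No change is given for probe 4, which was not above background on any knockout array and whose wild-type level did not exceed that of the dimmest detected probes.

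Every knockout array was below every wild-type array for 4 of 4 Paqr9 probes in the 5 arrays. Of all probes tested there, 16.4% had this pattern, and since Paqr9 was selected on this contrast nothing is read from its count. The samples kept the same order on the 3 bright probes. Wild-type array 2 was lowest and wild-type array 3 highest on each, over ranges of 0.77, 1.10 and 1.08 on the log2 scale for probes 1, 2 and 3. Knockout array 2 was above knockout array 1 on each, and on probes 2 and 3 knockout array 1 was at background. Which wild-type mouse is replicate 2 and which is replicate 3 rests on the array tables, since the authors' value table has these columns exchanged.

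All 6 arrays were then normalized together. Probe 1 of Paqr9 had log2 levels of 10.62, 10.36 and 11.13 on the wild-type arrays and of 6.50, 7.41 and 9.32 on the knockout arrays, a log2 change of -2.96 ± 0.72 (SE) or 7.77-fold. Knockout array 3 was then the highest knockout array and lay 1.38 below the wild-type mean on the log2 scale, although its deposited signal of 96.2 units was the lowest of the 6. Probe 2 changed by -4.0 ± 0.50 (SE) and probe 3 by -3.78 ± 0.53 (SE), with 1 of the 3 knockout arrays detected on each. Probe 4 was at background on all 3 knockout arrays. Its log2 levels were 4.55, 4.68 and 4.82 on the wild-type arrays and 4.34, 4.35 and 5.97 on the knockout arrays, so knockout array 3 lay above the wild-type arrays. The groups did not overlap on 3 of 4 Paqr9 probes, and 13.4% of all probes tested in the 6 arrays had every knockout array below every wild-type array.

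The change of probe 1 stayed below 0 under every processing setting that was tried. Over 15 alternatives in the 5 arrays its log2 change ran from -4.35 to -3.12, and over 16 alternatives in the 6 arrays from -4.96 to -2.34. Probe 2 ran from -4.65 to -2.30 and probe 3 from -4.21 to -2.12 in the 5 arrays. The smallest changes of probes 2 and 3 in the 5 arrays came from the authors' value table, and without background correction the changes were nearly as small. The authors' values were used as deposited for all 6 arrays, with only the column of knockout array 3 dropped. The other settings were normalized without that array. Paqr9 was selected for its fall in these same arrays, so the constant sign is a description and no independent evidence.

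**Figure D2:**
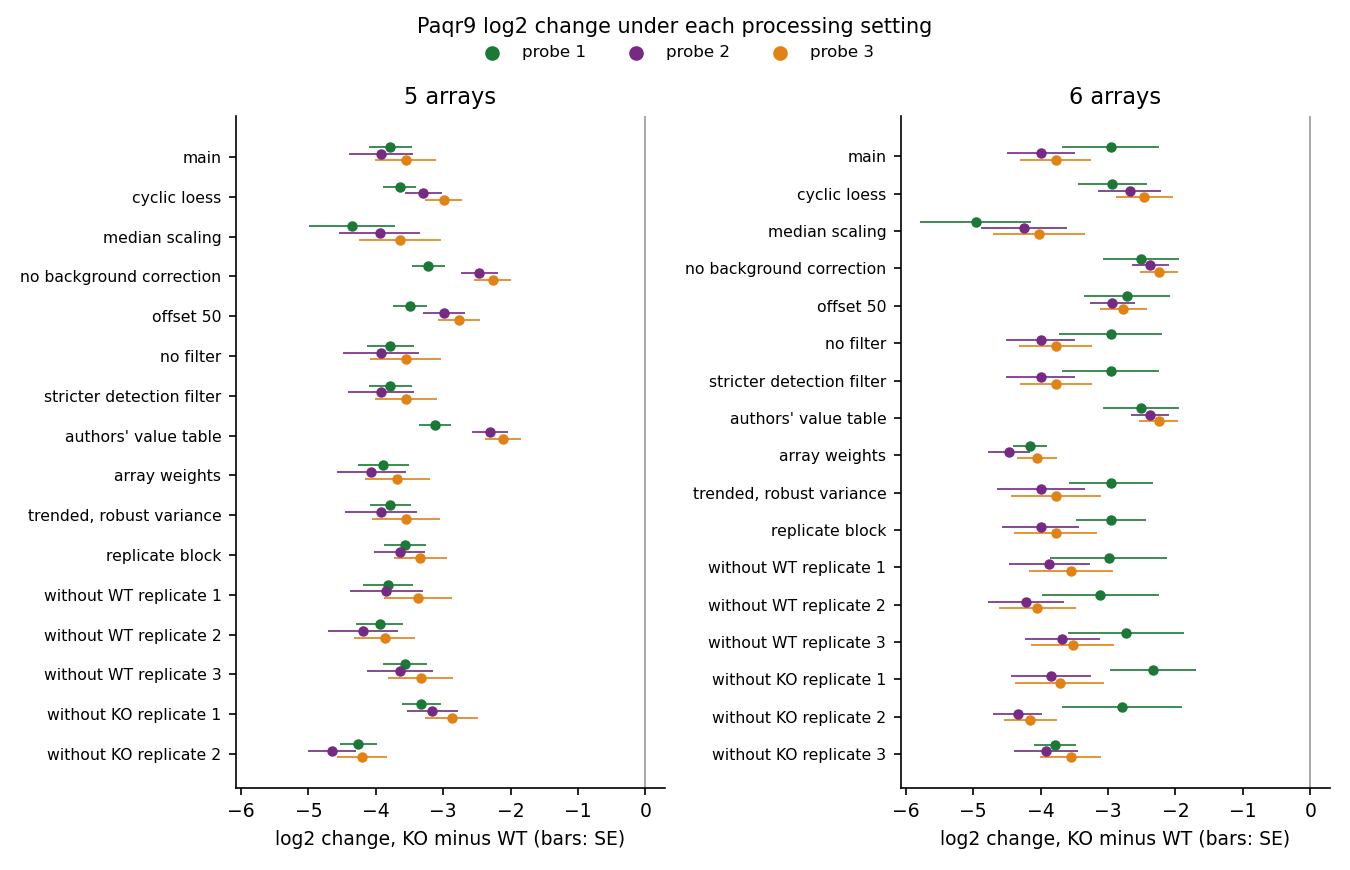
Log2 change of Paqr9 probes 1, 2 and 3, knockout minus wild type, with its standard error, under the reported setting ("main") and each alternative, for 5 arrays (left) and all 6 (right). All 3 lie below 0 under every setting shown, and probe 1 runs from -4.35 to -3.12 in the 5 arrays and from -4.96 to -2.34 in the 6.

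Adipor1, the adiponectin receptor that is tied mainly to AMP-activated kinase, was detected on all 6 arrays. Its deposited signals were 1181, 928 and 927 units on the wild-type arrays and 401, 1137 and 103 units on the knockout arrays. These followed the brightness of each array, since its rank stayed between percentiles 97.3 and 98 on all 6. In the 5 arrays its normalized log2 levels were 9.70, 9.71 and 9.69 on the wild-type arrays and 9.84 and 9.71 on the knockout arrays. The groups overlapped and the log2 change was 0.07 ± 0.15 (SE), with a limma adjusted p of 0.869. In all 6 arrays it was 0.22 ± 0.22 (SE), with an adjusted p of 0.656. Under median scaling, which moved the median change of all probes to -0.42 in the 5 arrays, the sign for Adipor1 turned to -0.68.

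Adipor2, the adiponectin receptor tied mainly to PPARA and fatty acid oxidation, was also detected on all 6 arrays. Its signals were 2054, 1512 and 2075 units on the wild-type arrays and 494, 1770 and 104 units on the knockout arrays. Its normalized log2 levels in the 5 arrays were 10.55, 10.44 and 10.91 against 10.16 and 10.41. Both knockout arrays were below the 3 wild-type arrays, knockout array 2 by a small margin, and 16.4% of all probes tested had this pattern. The log2 change was -0.35 ± 0.20 (SE) with a limma adjusted p of 0.499, and -0.34 ± 0.22 (SE) with an adjusted p of 0.653 in all 6 arrays. The change was not called, and it was below 0 in all 15 alternatives in the 5 arrays. These alternatives reuse the same arrays, so the constant sign is no independent evidence. In the reported fit 54.7% of all probes tested lay below 0.

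Paqr7, the alpha form of the membrane progestin receptors, was detected on every array but knockout array 3. Its signals were 357, 266 and 318 units on the wild-type arrays and 181, 334 and 87.0 units on the knockout arrays. After normalization its log2 levels were 7.76, 7.59 and 7.90 against 8.10 and 7.66. The groups overlapped, with a log2 change of 0.14 ± 0.19 (SE; limma adjusted p = 0.796). The sign turned to -0.65 ± 0.67 (SE; adjusted p = 0.658) in all 6 arrays, where knockout array 3 lay at 5.28. Without that array it turned in 2 of 15 alternatives, to -0.54 under median scaling and to -0.08 without knockout replicate 1.

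No probe of these 3 receptors was called in either fit or in any alternative. Over all probes, 0.342% were called in the 5 arrays, in either direction, and 0.279% were called lower in the knockout. Without wild-type arrays 1, 2 or 3 the number of all probes called went from 49 to 15, 9 and 9, and without knockout arrays 1 and 2 to 41 and 2234. In the 6 arrays limma called 0% of the probes, with 3.85% of them at an unadjusted p under 0.05. Cyclic loess then called 3 probes, a trended and robust variance 5, and array weights 2832. The median log2 change of Adipor1, Adipor2 and Paqr7 in the 5 arrays was 0.07, beside -0.03 over all probes tested. An adjusted p above the threshold, with 3 mice against 2, does not show that the levels were equal.

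**Figure D3:**
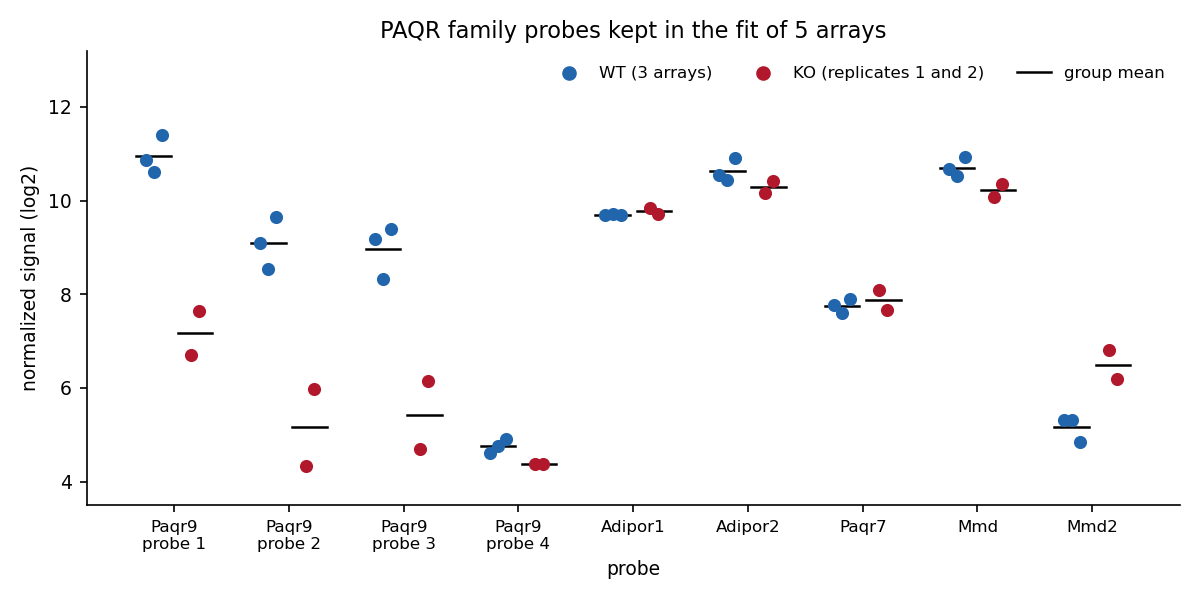
Normalized log2 signals in the 5 arrays of the 4 Paqr9 probes, Adipor1, Adipor2, Paqr7 and the related genes Mmd and Mmd2, 1 point per array (blue wild type, red knockout) with a black bar at each group mean. Paqr9 probe 1 has means of 10.96 and 7.17, whereas Adipor1 has means of 9.70 and 9.77 and Adipor2 means of 10.64 and 10.29.

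The remaining members were at the background of the arrays. Paqr3 had signals of 95.3, 94.4 and 98.7 units on the wild-type arrays and of 93.6, 94.0 and 88.1 units on the knockout arrays, and it was detected only on wild-type array 3. Paqr5, the gamma form of the membrane progestin receptors, lay between 85.3 and 90.8 units and was detected on no array. Paqr8, the beta form, lay between 82.2 and 92.8 units and was likewise detected on no array. These 3 probes did not pass the filter of detection on at least 3 arrays and gave no test, so 7 of the 10 member probes were tested in each fit. Paqr4 had no probe by its symbol.

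Paqr6, Mmd and Mmd2 also belong to the family and were followed as a list of their own. Paqr6, the delta form of the membrane progestin receptors, had no probe that passed the filter. Mmd, first described in maturing macrophages, had signals of 2217, 1599 and 2103 units on the wild-type arrays and of 468, 1705 and 104 units on the knockout arrays. Its log2 level without knockout array 3 averaged 10.71 ± 0.20 (SD, n = 3) for wild type against 10.22 ± 0.20 (SD, n = 2) for the knockout, a difference of -0.48 ± 0.19 (SE) with a limma adjusted p of 0.386. With knockout array 3 the difference for Mmd was -0.45, with an adjusted p of 0.653. As with Adipor2, the knockout arrays lay below the wild-type arrays without a call. Of all probes tested, 16.4% had this pattern in the 5 arrays and 13.4% in the 6.

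Mmd2 is the closest relative of Mmd, and its signals were 121, 113 and 101 units on the wild-type arrays and 127, 165 and 78.6 units on the knockout arrays. The wild-type signals were near the medians of their arrays, at 94.3, 92.1 and 91.5 units. In the 5 arrays the wild-type mean was 5.16 ± 0.27 (SD, n = 3) and the knockout mean 6.50 ± 0.44 (SD, n = 2) on the log2 scale. Knockout array 1, a dim array, stood at 6.81 after normalization and knockout array 2 at 6.19, the reverse of the order of their deposited signals. The difference was 1.34 ± 0.24 (SE), with a limma adjusted p of 0.0964, and did not pass the threshold. Both knockout arrays were above the 3 wild-type arrays, as was the case for 12.9% of all probes tested. Without knockout replicate 2, which left only knockout array 1 in that group, the log2 change of Mmd2 was 1.61. Mmd2 was called in 3 of 15 alternatives, that fit among them. In all 6 arrays the change was 0.55 ± 0.63 (SE) with overlapping groups.

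Promoter sequence was looked up for the members in RefSeq windows of build GRCm38.p6, each from 250 bases before to 50 bases after a start site. Windows were found for 7 of the 8 genes, 10 windows in all, and Paqr9 had none. They were searched on both strands for the full cyclic AMP response element TGACGTCA and for its core TGACG, read as CGTCA on the other strand, which CREB-related factors are known to recognise. The core lies within the full element. The core was in 5 of the 10 windows and in 20.8% of all 32851 windows of the table. The full element was in the Paqr3 window alone among the 10, and in 1.79% of all windows. The following stretches show the core or the full element, in capitals, for the 2 adiponectin receptors, which were measured in these arrays, and for Paqr3, which was near background. Each is read 5′ to 3′ on the strand of the gene.
Adipor1, chr1:134415414-134415481, plus strand, from the second of its windows: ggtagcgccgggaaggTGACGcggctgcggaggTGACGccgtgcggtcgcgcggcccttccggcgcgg
Adipor2, chr6:119388728-119388792, minus strand: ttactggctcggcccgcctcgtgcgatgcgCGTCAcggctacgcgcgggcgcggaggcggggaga
Paqr3, chr5:97111594-97111661, minus strand: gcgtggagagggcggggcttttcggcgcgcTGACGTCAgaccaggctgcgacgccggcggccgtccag

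The core begins 28 bases before the start site in Adipor2, and the full element 35 bases before it in Paqr3. Neither of the 2 Paqr7 windows holds the core. The short motif CCACG was in 5 of the 10 member windows and in 32.8% of all windows, and ACGT in 2 of the 10 and in 30.9% of all, and the endoplasmic reticulum stress element (ERSE) was in 0.119% and the direct repeat of PPAR response elements (DR1, searched in 1 exact spelling) in 0.0396%. The ERSE and DR1 letters were in none of the 10 member windows. A match is a run of letters and was not tested as a binding site.

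The genes whose probe behaved most like Paqr9 probe 1 were found from the 5 arrays, by the root mean square difference of log2 levels after the wild-type mean of each probe was subtracted. This measure uses the contrast that Paqr9 was selected on, so it is a description. Probes 2 and 3 of Paqr9 were the nearest of all probes, at 0.267 and 0.293. The nearest other gene was Apoa4, an apolipoprotein of chylomicrons and very low density lipoprotein, at 0.506 and with a log2 change of -3.84. Then came 1190007I07Rik at 0.748, 1810055G02Rik at 0.758, Fgf21, a hormone that the fasted liver secretes, at 0.769, and 2010003K11Rik at 0.820. Their log2 changes were -2.67, -2.82, -2.64 and -2.51. Of these, 1190007I07Rik, Fgf21 and 2010003K11Rik were detected on only 1 of the 2 knockout arrays. Their wild-type means of 7.16, 7.73 and 7.34 lay nearer to background than the 10.96 of Paqr9 probe 1. Background limits how far such signals can fall, so the sizes are not ranked against that of Paqr9.

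Within the knockout the profiles of these genes were not alike. Apoa4 had log2 levels of 7.21 and 7.04 on knockout arrays 1 and 2, so knockout array 2 was not the higher one as it was for Paqr9. Fgf21 had 4.57 and 5.60, with knockout array 2 higher as for Paqr9, and the wild-type order also differed from that of Paqr9, with wild-type array 1 lowest for Apoa4 and Fgf21. In all 6 arrays the 5 nearest genes were Fgf21, 1190007I07Rik, 2010003K11Rik, Elovl5 and Cidec, and 3 of them were among the 5 found without knockout array 3.

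**Figure D4:**
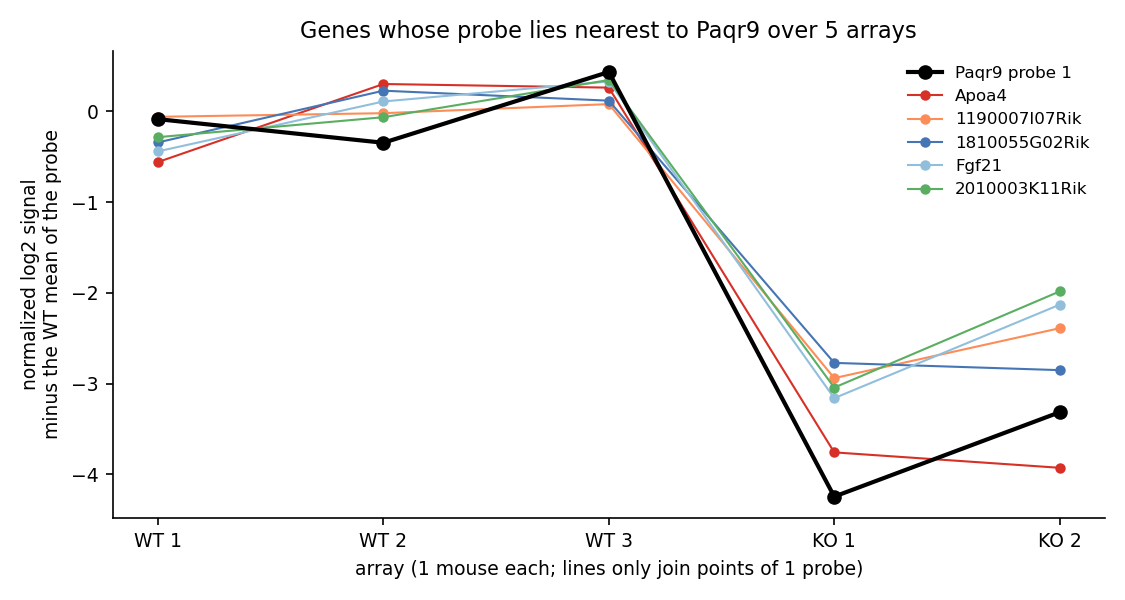
Normalized log2 signal minus the wild-type mean of the same probe on each of 5 arrays, for Paqr9 probe 1 (black) and the 5 genes nearest to it. On the knockout arrays Paqr9 and Apoa4 lie lowest, with mean changes of -3.78 and -3.84, and the other genes lie between -2.82 and -2.51 on average. Among those others, 1190007I07Rik, Fgf21 and 2010003K11Rik were detected on only 1 of the 2 knockout arrays, so background limits how far they fall.

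Of the 3 genes on each side of Paqr9 in the gene table, only U2surp and Pcolce2 had probes. U2surp, a splicing factor listed on the array as 2610101N10Rik, had log2 changes of -0.04 ± 0.16 (SE) and 0.18 ± 0.21 (SE) on its probes, with limma adjusted p values of 0.943 and 0.75. Pcolce2, an enhancer of procollagen processing, had 0.45 ± 0.21 (SE) and -0.03 ± 0.24 (SE), with adjusted p values of 0.45 and 0.968. Neither was called in the 5 arrays. With knockout array 3 the changes were -0.87 ± 0.70 (SE) and 0.02 ± 0.26 (SE) for U2surp and 0.04 ± 0.38 (SE) and -0.12 ± 0.26 (SE) for Pcolce2, none of them called. Without knockout replicate 2, which left only knockout array 1 in that group, the brighter Pcolce2 probe changed by 0.73 on the log2 scale.

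Genes of adiponectin signalling, downstream of Adipor1 and Adipor2, were represented by 20 measured genes of 28 listed. In the 5 arrays 0 were called higher and 1 lower, where 0.342% of all probes were called. Of the 20 genes 10 lay above and 10 below 0, with a median log2 change of -0.04, beside -0.01 over all genes. The called gene was Ppara, the nuclear receptor of the fasting response. Its wild-type log2 mean was 5.81 ± 0.06 (SD, n = 3) and its knockout mean 4.57 ± 0.21 (SD, n = 2), and 1 of the 2 knockout arrays detected it. It fell by 1.24 ± 0.17 (SE; limma adjusted p = 0.0345) on the log2 scale. The call was kept in 4 of 15 alternatives. It was lost without wild-type arrays 1, 2 or 3 (adjusted p of 0.191, 0.15 and 0.207) or knockout array 1 (0.0505). Irs2, an insulin receptor substrate, at -1.08 ± 0.30 (SE; adjusted p = 0.252), and Acacb, the mitochondrial acetyl-CoA carboxylase, at -0.72 ± 0.26 (SE; adjusted p = 0.36), were not called. In all 6 arrays 0 genes of the list were called and the median was -0.55, beside -0.25 over all genes.

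PPARA and ketogenesis genes, with HUWE1, formed a list around the described role of PAQR9. Of 13 listed genes 11 were measured, and all 11 lay below 0 in the 5 arrays, as did 54.7% of all probes tested. The median log2 change was -0.32, beside -0.01 over all genes. Those called were Ppara and Fgf21, 0 higher and 2 lower, where 0.342% of all probes were called. Fgf21 had log2 means of 7.73 ± 0.40 (SD, n = 3) on the wild-type arrays and 5.09 ± 0.73 (SD, n = 2) on the knockout arrays, and fell by 2.64 ± 0.33 (SE; limma adjusted p = 0.0255). It was detected on 1 of those 2 knockout arrays. The Fgf21 call was kept in 11 of 15 alternatives and was lost without wild-type array 2 (adjusted p = 0.15) or 3 (adjusted p = 0.0993). Huwe1 stood at -0.23 ± 0.17 (SE; adjusted p = 0.595). Bdh1, a ketone body enzyme, was split between probes, at -0.91 (adjusted p = 0.223) on the brighter and -1.38 (adjusted p = 0.0377) on the dimmer. In all 6 arrays 0 were called, 10 of the 11 lay below 0, as did 72.7% of all probes, and the median was -0.79, beside -0.25 over all genes. PPARA and FGF21 are known to be linked with CREB3L3 in fasting, and this list was drawn up with earlier results of these data known, so its direction is no independent evidence.

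Partners of Paqr3 in the Golgi, the RAF kinase cascade and the SCAP-SREBP system, were measured for 13 of 15 listed genes. In the 5 arrays 5 lay above and 8 below 0, with a median log2 change of -0.06, beside -0.01 over all genes. Over all probes 0.342% were called, and of these 13 genes 0 were called higher and 1 lower. The latter was Insig2, which holds SCAP in the endoplasmic reticulum and is not itself a RAF partner, and it fell by 1.25 ± 0.18 (SE; limma adjusted p = 0.0412) on the log2 scale. Other Insig2 probes were at -1.53 (adjusted p = 0.0227) and -1.05 (adjusted p = 0.0579). The call was kept in 7 of 15 alternatives. It was lost without wild-type arrays 1, 2 or 3 (adjusted p of 0.191, 0.199 and 0.23) or knockout array 1 (0.0741). Scap at -0.49 ± 0.20 (SE; adjusted p = 0.393) and Araf at -0.44 ± 0.18 (SE; adjusted p = 0.394) were not called. The change of Araf ran from -0.65 to -0.24 on leaving out 1 mouse. In all 6 arrays 2 genes lay above and 11 below 0, where 72.7% of all probes lay below 0. The median was -0.44, beside -0.25 over all genes.

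Neither the BAG6 complex nor the progesterone-related genes had a called gene in the 5 arrays. All 6 BAG6 complex genes lay above 0 in the 5 arrays, with a median log2 change of 0.19, beside -0.01 over all genes and with 54.7% of all probes below 0. With knockout array 3 included, 3 lay above and 3 below 0, with a median of 0.0038. The smallest p values among them were those of Ubl4a at 0.35 ± 0.17 (SE; limma adjusted p = 0.46), Sgta at 0.26 ± 0.16 (SE; adjusted p = 0.529) and Bag6 at 0.25 ± 0.17 (SE; adjusted p = 0.558). All 3 turned below 0 under median scaling. Of the progesterone list, 4 of 5 genes were measured, and the nuclear receptor gene Pgr was not among them. Their median was 0.02 in the 5 arrays and -0.31 in the 6, beside -0.25 over all genes in the 6. Cyb5d2 at 0.52 ± 0.31 (SE; adjusted p = 0.519), Pgrmc2 at -0.12 ± 0.19 (SE; adjusted p = 0.814) and Nenf at 0.03 ± 0.17 (SE; adjusted p = 0.958) had the smallest p values. Without knockout replicate 2, which left only knockout array 1 in that group, Cyb5d2 changed by 0.96. In all 6 arrays 0 genes of the 6 lists were called.

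**Figure D5:**
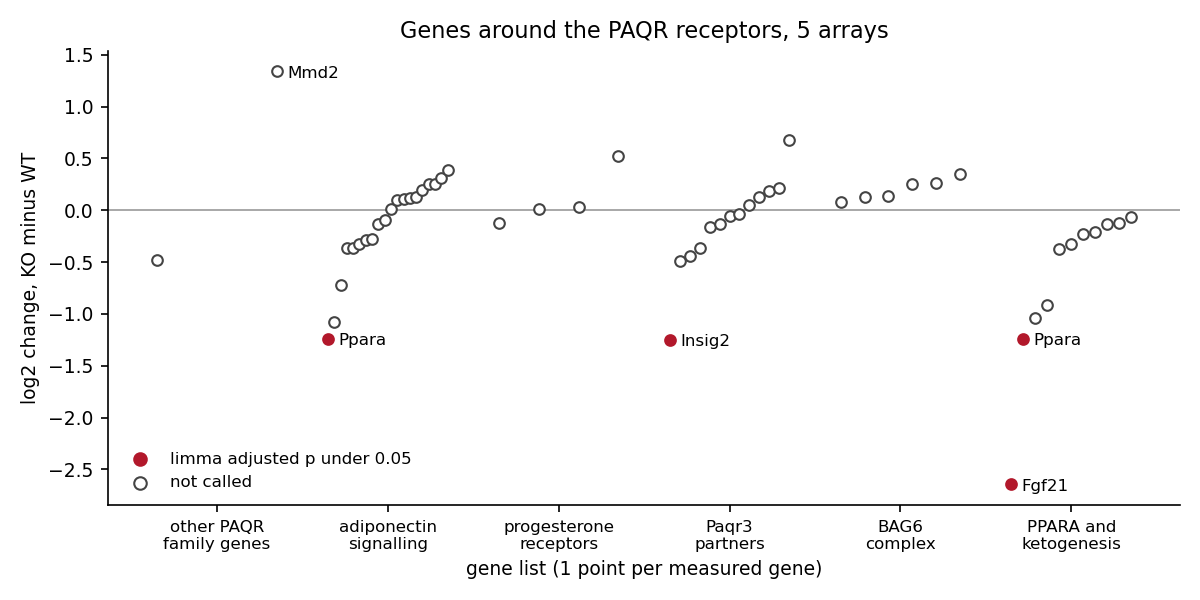
Log2 change, knockout minus wild type, of each measured gene of 6 lists in the 5 arrays, with filled red points for genes at a limma adjusted p under 0.05. Ppara (shown in both lists that hold it), Insig2 and Fgf21 are the called genes, at -1.24, -1.25 and -2.64, and Mmd2 at 1.34 is the highest point.

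Markers of liver cell types were read on the same 5 arrays, and 0 were called. Each summed normalized level takes all markers of a type that have a probe, detected or not, and detected here means on at least 3 of the arrays. Of 8 hepatocyte markers 7 were detected, and the sum over all 8 was 70703 to 75444 in wild type and 68660 and 62978 on knockout arrays 1 and 2. The summed level of the 6 Kupffer cell markers was 1139 to 1282 in wild type and 1280 and 1426 in the knockout. That of the 6 endothelial markers, 5 of them detected, was 494 to 549 against 625 and 738, with Kdr detected on no array. That of the red cell markers, 3 of 4 detected, was 21485 to 26218 in wild type, 9252 on knockout array 1 and 23306 on knockout array 2. Of cholangiocyte markers 2 of 5 were detected (425 to 643 against 620 and 687), with Krt7, Epcam and Krt19 on no array, and of stellate cell markers 2 of 5 (480 to 602 against 382 and 442). T and B cell markers had 1 of 4 detected (83.2 to 93.8 against 135 and 91.5), and exocrine pancreas 2 of 3 (235 to 291 against 300 and 226). Adipocyte markers had 0 of 5 detected on at least 3 arrays (95.7 to 105 against 139 and 97.6). The part of these differences in the Paqr9 values was not tested.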

How the data were processed

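Liver RNA of 3 wild-type and 3 Creb3l3-deficient mice was measured on Illumina WG-6 bead arrays, 1 array per mouse. Each deposited array table gives an average bead intensity per probe, which per the file headers and the values is linear and neither normalized nor background-subtracted, and a detection p-value computed by the authors' software. That software was BeadStudio 3, per the submitters' processing notes. The authors' deposited value table also holds linear intensity values, with column medians of 91.6 to 91.7. Each of its columns matched the signals of 1 array in rank order, which does not show how the values were normalized. Compared with the array tables, it had the columns of wild-type arrays 2 and 3 exchanged. The array tables' mapping was used here, and which of them matches the mice is not known. Its normalization method is not given in these sources, and it served as an alternative only.

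The function neqc of limma 3.58.1 (R 4.3.3) corrected the background by normexp with the detection p, added an offset of 16, applied quantile normalization and took log2. The filter, a detection p below 0.05 on at least 3 arrays, left 14345 probes (10055 genes) of the 5 arrays and 14494 probes (10171 genes) of the 6, and the 2 sets were normalized separately. The limma model (lmFit, eBayes) held genotype alone. P-values were two-sided, adjusted by Benjamini-Hochberg over all kept probes, with calls at an adjusted p under 0.05. The scripts were tested on simulated data. The number of arrays limits the precision, and replicates are separate mice. Replicate numbers are shared between groups in the labels but were not taken as pairs. In the 6 arrays same-numbered arrays deviated with correlations of -0.05 to 0.04, and arrays of different number with -0.04 to 0.08. Because knockout array 3 stood apart, these values do not settle whether the arrays are paired. In the 5 arrays pairing cannot be judged either, because the deviations of 2 knockout arrays mirror each other.

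Names and neighbours came from a RefSeq gene table (assembly GRCm38.p6): 27740 probes had a current symbol, 8037 were renamed and 9504 were unmatched. Promoter windows came from RefSeq. Named were all member probes, Creb3l3, the 5 genes nearest to Paqr9, its neighbours on the array, and of each list up to 3 genes with the smallest p plus called genes, of which 1 gene is not reported here. Insig2 and Bdh1 are given with their other probes, which disagreed on the call, and Pgr, Huwe1, Elovl5 and Cidec were named after their values were seen. The probe with the highest mean normalized level stood for each gene. The members and lists were chosen with earlier results of these data known. Figures were drawn with matplotlib 3.10.9.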

Additional observations from a re-analysis of the deposited data

How the results depend on the processing

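Each value was recomputed under alternatives listed with the design, 1 at a time. In the 5 arrays 49 probes were called, 9 higher and 40 lower. The count became 83 under cyclic loess (25 higher, 58 lower), 4 under median scaling (0 higher, 4 lower), 85 without background correction, 108 with an offset of 50, 1 without the filter, 83 from the authors' table, 32 with array weights and 122 with a trended and robust variance. Leaving out 1 mouse gave 9 to 2234. In the 6 arrays the count of 0 became 3 under cyclic loess, 2832 with array weights, which gave knockout array 1 87.2% of the weight of its group, and 5 with a trended and robust variance, and ran from 0 to 49 on leaving out 1 mouse. Median scaling moved the median log2 change of all probes to -0.42 in the 5 arrays.

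For Paqr9 probe 1 the log2 change in the 5 arrays moved to -4.35 under median scaling, -3.22 without background correction and -3.12 in the authors' table, and ran from -4.26 to -3.33 on leaving out 1 mouse. In the 6 arrays it moved to -4.96 under median scaling and -4.16 with array weights, and ran from -3.78 to -2.34 on leaving out 1 mouse. The cause of these shifts was not tested. The set of 5 nearest genes shared 3 with that of the 6 arrays. No probe of Adipor1, Adipor2 or Paqr7 was called under any alternative of either fit.

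In the 5 arrays the 1 call in the adiponectin list became 0 under cyclic loess, median scaling, no background correction, no filter, the authors' table and array weights, and 0 to 2 on leaving out 1 mouse. The 1 call among Paqr3 partners became 0 under median scaling, no filter and array weights, and 0 to 4. The 2 calls in the PPARA list became 1 under cyclic loess, no background correction, the authors' table and array weights, 0 under median scaling and no filter, and 0 to 3. The other PAQR genes gained 1 call under cyclic loess and a trended variance, and 0 to 1. The progesterone list had 0 to 1. In the 6 arrays array weights called 2 of the other PAQR genes, 4 adiponectin genes, 1 progesterone gene, 5 Paqr3 partners, 1 BAG6 gene and 4 PPARA genes. Without 1 mouse the adiponectin and Paqr3 lists had 0 to 1 and the PPARA list 0 to 2.

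With the replicate number as a block, which was not taken as a pairing, 47 probes were called in the 5 arrays and 0 in the 6. Paqr9 probe 1 changed by -3.57 and -2.96. The block took the adiponectin and Paqr3 lists from 1 call to 0 and the PPARA list from 2 to 1. The slide as a block was not run, because the files name no slide. A fit with 1 knockout array takes its spread from the wild-type arrays. Signal over background limits Paqr3, Paqr5 and Paqr8, which were at background, and the knockout levels of Paqr9 probes 2, 3 and 4, and all levels on knockout array 3. Knockout array 1, which stays in the fit of 5 arrays, was also dimmer than the wild-type arrays.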
